A study of Mus musculus with 11 samples.

Results

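Killer-cell lectin-like receptors were followed across 3 populations of mouse CD4+ T cells on a custom Affymetrix glycan gene chip. The 10 genes were Klrd1, Klrc1, Klrk1, Klrg1, Klrb1f, Klra3, Klra6, Klra7, Klra8 and Klra9. Every row of the deposited table whose identifier holds a RefSeq transcript of one of these genes was taken, which gave 11 of 1246 probe sets and 10 of the 909 genes named here. Klra3 had 2 rows and each other gene 1. The rows of Klra6 and Klra8 and 1 row of Klra3 end in the suffix x, and the Klra9 row in s. These suffixes mark probe sets that may also bind transcripts of other genes, so a value of theirs may come in part from a relative. The suffix a of the Klrc1 row marks several transcripts of 1 gene, and the other rows carry no suffix.

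All cells came from the spleens of female C57BL/6 mice with no engineered allele or treatment named in the labels, and were sorted by flow cytometry. Treg arrays (n = 3, replicates 1, 2 and 4) hold cells sorted as CD4+ CD25+ CD45RBlow, the regulatory population of the labels. The CD45RBlow arrays (n = 4) hold CD4+ CD25- cells that the labels describe as activated or memory, and the CD45RBhigh arrays (n = 4) hold CD4+ CD25- cells described as naive, both from mice aged 4 to 6 weeks. The Treg labels give no age, so age and population cannot be told apart in the Treg comparisons, and no label says whether replicates were separate animals or pools. The p-values therefore measure only the spread between these samples, which may be technical. Il2ra, which encodes CD25, read 9.84 on average in Treg cells, 6.17 in CD45RBlow and 4.07 in CD45RBhigh cells, highest in the population sorted for it. Foxp3, Cd4 and Cd3e were not analysed here.

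Values are log2 expression, on which a difference of 1 is a doubling, and array medians lay between 4.85 and 4.94. Their number limits the precision of every value. The first quartile of all values, 3.64, is used here as the level under which a probe set is read as near background, and sizes measured against such a level may be lower bounds. Replicates 1 and 2 were also set against replicates 3 and 4. No label defines these sets. They were chosen with earlier results of these data known, so the p-values between them are a description and no independent test. With population in the limma model 20.6% of all probe sets differed between these replicate sets, among them 3 of the 11 receptor rows. Klrg1 read higher in replicates 1 and 2 by 0.62 (limma, adjusted p = 0.00461), Klrb1f by 0.62 (adjusted p = 0.00297) and Klrc1 by 0.30 (adjusted p = 0.0232). Values within each replicate set are given beside many of the results, but not all. Treg cells have 1 array, replicate 4, in the second set, and its spread is taken from the other arrays of the fit.

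Killer-cell lectin-like receptors are type II membrane proteins with a C-type lectin-like domain, best known from natural killer cells, and many sit together in the natural killer gene complex. The inhibitory ones recruit phosphatases through a tyrosine motif in their tail, and the activating ones pair with adaptor proteins. Several are also found on subsets of T cells, where they are linked with activation or memory. In the RefSeq gene table all 10 genes lie on chromosome 6. Among the family's genes there, Klrd1 and Klrk1 are next to each other, as are Klra9 and Klra7.

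The 3 Ly49 genes whose probe sets differed between Treg and CD45RBhigh cells (Klra9, Klra3 and Klra8, described further on) are shown by the 250 bases before their annotated start, to let a reader see how alike these relatives are. The sequences are from RefSeq (GRCm38.p6, all on the minus strand, printed 5′ to 3′), and 8 of the 10 genes had an entry. Capitals mark TATAAA or its reverse complement TTTATA, a motif searched on both strands and chosen after the sequences were seen.
Klra9, chr6:130193113-130193362: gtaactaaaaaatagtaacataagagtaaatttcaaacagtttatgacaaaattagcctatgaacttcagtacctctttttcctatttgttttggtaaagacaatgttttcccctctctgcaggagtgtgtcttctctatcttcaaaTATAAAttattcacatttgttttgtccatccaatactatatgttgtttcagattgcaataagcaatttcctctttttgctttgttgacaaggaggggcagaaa
Klra3, chr6:130337627-130337876: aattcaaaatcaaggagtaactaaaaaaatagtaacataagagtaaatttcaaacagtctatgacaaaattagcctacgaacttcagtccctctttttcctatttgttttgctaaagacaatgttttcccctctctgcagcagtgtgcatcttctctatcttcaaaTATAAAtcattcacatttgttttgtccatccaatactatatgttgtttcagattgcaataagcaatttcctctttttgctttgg
Klra8, the more distal of 2 annotated starts, chr6:130129899-130130148: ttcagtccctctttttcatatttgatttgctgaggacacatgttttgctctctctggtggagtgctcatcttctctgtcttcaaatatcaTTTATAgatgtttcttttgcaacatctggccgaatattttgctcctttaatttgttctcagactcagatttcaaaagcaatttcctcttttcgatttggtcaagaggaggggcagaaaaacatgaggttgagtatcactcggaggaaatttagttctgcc

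The windows of Klra9 and Klra3 were 83.3% identical in a global alignment and shared an unbroken run of 75 bases. Klra8 shared a run of 17 bases with each of them, and its alignment identity was 47.8% with Klra9 and 41.4% with Klra3. These identities depend on where each start is annotated, since windows that are offset align in part only. The motif was present for all 5 Ly49 genes in at least 1 annotated start and for 6 of the 8 genes with an entry. Of the 32851 windows searched 12.4% held it, counted by window and not by gene. Because the motif was chosen after these sequences were seen, setting the counts side by side is no test. A match is a description of letters and no binding site. The probes lie in transcripts, and their sequences were not used here, so these windows say nothing about cross-hybridisation.

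In the comparison of Treg with CD45RBhigh cells, regulatory against naive-type cells, 6 of the 11 receptor rows were called at an adjusted p under 0.05 (limma, Benjamini-Hochberg over 1246 probe sets), beside 18.9% of all probe sets. Of these 1 was higher in Treg cells, Klrg1, and 5 were lower, namely Klrd1, Klra9, Klra8 and both rows of Klra3, beside 10.3% of all probe sets higher and 8.59% lower. The median difference of the 11 rows was -0.41, against -0.04 over all probe sets. In the comparison of Treg with CD45RBlow cells 5 rows were called (12.5% of all probe sets), 1 higher and 4 lower in Treg cells (6.74% and 5.78%). The rows called were Klrg1, higher, and Klrd1, Klrc1, Klrb1f and Klra9, lower, with a median over the 11 rows of -0.37 against 0.04 over all. In the comparison of CD45RBlow with CD45RBhigh cells 4 rows were called (12.6% of all), with Klrg1, Klrc1 and Klrb1f higher in CD45RBlow cells (7.62% of all were higher) and Klrd1 lower (4.98% of all were lower). The median there was -0.17 against -0.08 over all. Of the 157 probe sets called in that comparison 60.5% were higher in CD45RBlow cells, and of the 227 called after quantile normalization 43.2% were.

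Replicates of 1 number deviated from their population means together, and with the number as a block 8 rows were called between Treg and CD45RBhigh cells (26.5% of all probe sets), 6 between Treg and CD45RBlow cells (19.7%) and 7 between the CD25- populations (21.7%). The paired comparisons share arrays, since each population enters 2 of the 3, so their counts are not independent.

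**Figure D1:**
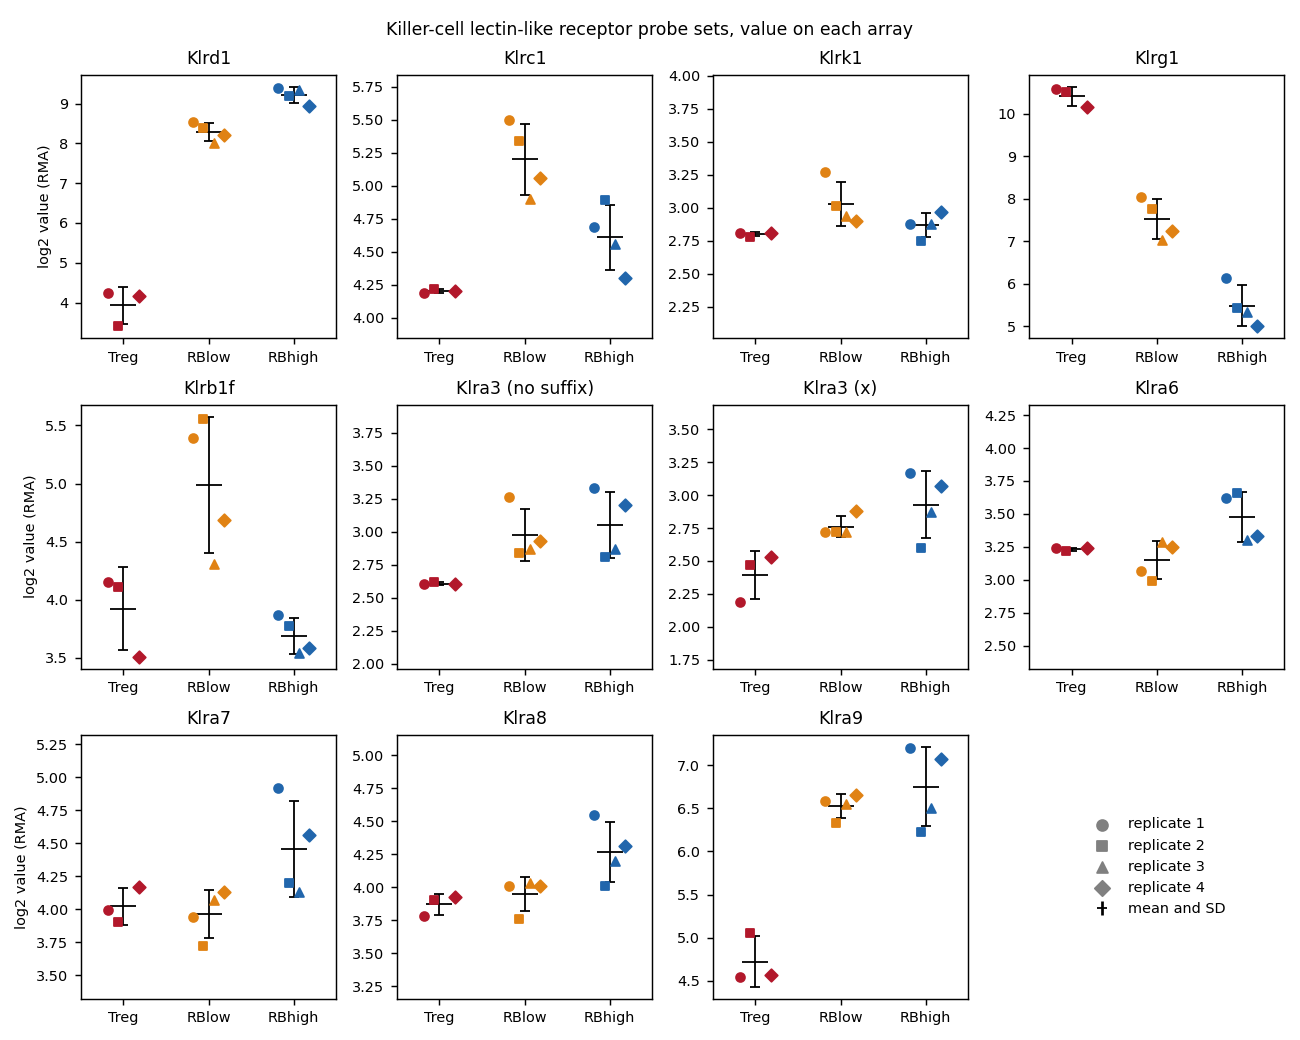
Log2 value (vertical axes, RMA) of each of the 11 receptor probe sets on each array, by population (horizontal axes), with the mean and SD in black and a marker shape per replicate number. Klrd1 is lowest and Klrg1 highest in the 3 Treg arrays, and Klrc1 and Klrb1f are highest in the 4 CD45RBlow arrays.

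**Figure D2:**
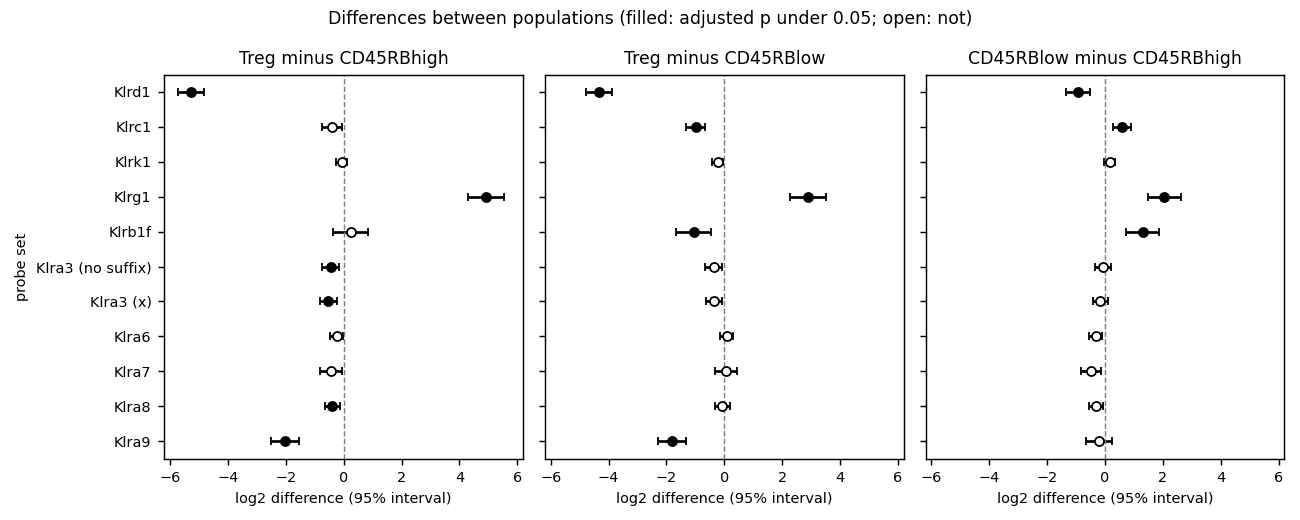
Log2 difference between populations (horizontal axes, with 95% interval) for each probe set, filled where the adjusted p is under 0.05. Klrd1 and Klrg1 have the largest differences in the Treg comparisons, at -5.29 and 4.93 against CD45RBhigh cells.

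Klrd1 encodes CD94, the common chain that pairs with NKG2 proteins to recognise the non-classical class I molecule Qa-1. It was high in both CD25- populations and low in Treg cells. Its log2 level was 4.23, 3.40 and 4.17 in Treg replicates 1, 2 and 4. In CD45RBlow replicates 1 to 4 it was 8.53, 8.39, 8.01 and 8.20, and in CD45RBhigh replicates 1 to 4 it was 9.40, 9.20, 9.35 and 8.94. The 3 populations did not overlap, and Treg replicate 2 alone lay under the near-background level.

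Klrd1 was 39.0-fold lower in Treg than in CD45RBhigh cells (log2 difference -5.29, 95% interval -5.73 to -4.84, limma adjusted p = 1.42e-08). Against CD45RBlow cells it was 20.4-fold lower (-4.35, -4.79 to -3.90, adjusted p = 1.12e-07). It also differed between the CD25- populations, where it was 1.92-fold lower in CD45RBlow cells (-0.94, -1.35 to -0.53, adjusted p = 0.00581). Within replicates 1 and 2 the last difference was -0.84 and within replicates 3 and 4 it was -1.04. In the same order Treg minus CD45RBlow was -4.64 and -3.93, and Treg minus CD45RBhigh was -5.48 and -4.97. The sizes against Treg cells may be lower bounds, because the Treg mean of 3.93 ± 0.47 (SD, n = 3) is close to the near-background level.

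Markers of other cells that could carry CD94 were covered thinly. Here and below a gene counts as measured if a named probe set holds it. Since 283 of the 1246 probe sets have no name here, other genes may still be on the chip. Of 13 natural killer cell names 1 was measured, the interleukin-2 receptor chain Il2rb, which T cells express too, and it ran the other way, at 10.59 to 10.97 in Treg, 9.48 to 10.19 in CD45RBlow and 6.95 to 7.66 in CD45RBhigh arrays. Neither CD8 name was found among the named probe sets, nor were the defining markers Ncr1 and Klrb1c. The part of such cells in the Klrd1 values was not tested. In bulk samples fewer cells with a transcript and less transcript per cell cannot be told apart.

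Klrc1 encodes NKG2A, the inhibitory partner of CD94, and its order differed from that of Klrd1. Its level was 4.19, 4.22 and 4.20 in Treg replicates 1, 2 and 4. In CD45RBlow replicates 1 to 4 it was 5.50, 5.34, 4.90 and 5.06, and in CD45RBhigh replicates it was 4.69, 4.89, 4.56 and 4.30. CD45RBlow arrays were highest, Treg arrays lowest, and no 2 populations overlapped, although CD45RBlow replicate 3 exceeded CD45RBhigh replicate 2 only slightly.

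Klrc1 was 1.99-fold lower in Treg than in CD45RBlow cells (-0.99, SE 0.15, limma adjusted p = 0.00104) and 1.50-fold higher in CD45RBlow than in CD45RBhigh cells (0.59, SE 0.14, adjusted p = 0.0188). The second call ended without CD45RBlow replicate 1 (limma adjusted p = 0.0580) or 2 (0.0605), in a range of 0.000841 to 0.0605 over all alternatives. Within replicates 1 and 2 Treg minus CD45RBlow was -1.21 and CD45RBlow minus CD45RBhigh was 0.63. Within replicates 3 and 4 they were -0.78 and 0.55. Between Treg and CD45RBhigh cells the difference was -0.41 (95% interval -0.74 to -0.07) and was not called (adjusted p = 0.100), but it was called with the replicate block at -0.46 (adjusted p = 0.0108, in a range of 0.00571 to 0.340 over all alternatives) and without CD45RBhigh replicate 4 (-0.51, adjusted p = 0.0376). Within replicates 1 and 2 it was -0.58 and was called (limma adjusted p = 0.00589). Within replicates 3 and 4 it was -0.24, which moves the value by over 1.5 times. Among the 23 alternatives it was called in 5.

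Klrk1 encodes NKG2D, an activating receptor for stress-induced ligands, and it read near background on all 11 arrays, between 2.75 and 3.27. Its means were 2.80 ± 0.02 (SD, n = 3) in Treg, 3.03 ± 0.17 (SD, n = 4) in CD45RBlow and 2.87 ± 0.09 (SD, n = 4) in CD45RBhigh cells. limma called it in no comparison, and its adjusted p ran from 0.142 (Treg against CD45RBlow, difference -0.23) to 0.674. Within replicates 1 and 2 the first of these was -0.34 (limma adjusted p = 0.0487), and the range over all alternatives was 0.0487 to 0.695. Klrk1 is the neighbour of Klrd1, whose population means spanned 5.29 where those of Klrk1 spanned 0.23.

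Klrg1 encodes an inhibitory receptor for E-cadherin and related cadherins that marks strongly activated effector cells and part of the regulatory T cells. It had the reverse order of Klrd1. Its level was 10.58, 10.50 and 10.15 in Treg replicates 1, 2 and 4. In CD45RBlow replicates 1 to 4 it was 8.04, 7.77, 7.04 and 7.25, and in CD45RBhigh replicates it was 6.15, 5.44, 5.33 and 5.01. All 3 populations were apart, with every array well above the near-background level.

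The steps between populations were 2.89 from CD45RBlow to Treg cells (95% interval 2.27 to 3.51, limma adjusted p = 3.46e-05) and 2.04 from CD45RBhigh to CD45RBlow cells (1.47 to 2.62, adjusted p = 0.000265), so that Klrg1 was 7.40-fold and 4.12-fold higher. Treg cells exceeded CD45RBhigh cells by 4.93 (4.31 to 5.55, adjusted p = 2.73e-07). Replicates 1 and 2 exceeded replicates 3 and 4 in both CD25- populations, and in Treg cells replicates 1 and 2 exceeded replicate 4. The differences were nevertheless alike within the sets. Treg minus CD45RBhigh was 4.75 within replicates 1 and 2 and 4.98 within replicates 3 and 4. In the same order Treg minus CD45RBlow was 2.64 and 3.01, and CD45RBlow minus CD45RBhigh was 2.11 and 1.97.

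Of the B cell genes, Cd72 was higher in Treg cells (mean 8.24) than in CD45RBlow (7.39) and CD45RBhigh cells (7.70; limma adjusted p = 0.00154 and 0.0173). Cd22 was lower in Treg (6.35) than in CD45RBlow cells (6.64, adjusted p = 0.0235) and higher than in CD45RBhigh cells (6.06, adjusted p = 0.0181), and Fcer2a was called in no comparison. The summed level of the 3 B cell genes measured of 7 (Cd22, Cd72 and Fcer2a, the last under the near-background level in every population) was 8.54 to 8.76 in Treg, 7.92 to 8.29 in CD45RBlow and 7.99 to 8.31 in CD45RBhigh arrays. The platelet gene Selp, the 1 measured of 4, was higher in Treg cells than in CD45RBlow and CD45RBhigh cells (limma adjusted p = 0.00490 and 0.0152) and read 4.95 to 5.28 in Treg, 4.51 to 4.79 in CD45RBlow and 4.62 to 4.79 in CD45RBhigh arrays. The 6 myeloid and dendritic genes measured of 12, with 4 of them under the near-background level in every population, summed to 6.41 to 6.64 over all arrays. The part of such cells in the receptor values was not tested.

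Klrb1f encodes NKR-P1F, a receptor of the NKR-P1 family that binds lectin-like partners of the Clec2 group. It was highest in CD45RBlow cells. Its level was 4.15, 4.11 and 3.51 in Treg replicates 1, 2 and 4. In CD45RBlow replicates 1 to 4 it was 5.39, 5.56, 4.31 and 4.69, and in CD45RBhigh replicates it was 3.87, 3.77, 3.54 and 3.58. Every CD45RBlow array lay above every other array, while Treg and CD45RBhigh arrays overlapped.

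Klrb1f was 2.46-fold higher in CD45RBlow than in CD45RBhigh cells (1.30, SE 0.25, limma adjusted p = 0.00533), by 1.66 within replicates 1 and 2 and by 0.94 within replicates 3 and 4. It was 2.09-fold higher in CD45RBlow than in Treg cells (Treg minus CD45RBlow -1.06, SE 0.27, adjusted p = 0.0256). This call ended without Treg replicate 2 (adjusted p = 0.0519) or 4 (0.107), without CD45RBlow replicate 1 (0.0739) or 2 (0.0593) and with only the arrays compared (0.0809). With the replicate block it was -1.20 (limma adjusted p = 0.000172), and the range over all alternatives was 4.68e-05 to 0.107. Within replicates 1 and 2 Treg minus CD45RBlow was -1.34, and within replicates 3 and 4 it was -0.99. Treg and CD45RBhigh cells differed by 0.24 (95% interval -0.37 to 0.84), which was not called (adjusted p = 0.653). It was 0.12 without Treg replicate 1, 0.14 without Treg replicate 2 and 0.44 without Treg replicate 4, and was not called in these fits either. The Treg and CD45RBhigh means of Klrb1f, 3.93 and 3.69, are close to the near-background level. The sizes against CD45RBlow cells may therefore be lower bounds.

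The NKT and activated T cell gene Cxcr6, the 1 NKT name measured of 3, rose in the same population as Klrc1 and Klrb1f, with 10.95 to 11.37 in CD45RBlow, 7.79 to 7.86 in Treg and 7.13 to 7.90 in CD45RBhigh arrays. Whether NKT cells take part in the Klrc1 and Klrb1f values was not tested.

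The Ly49 receptors, encoded by the Klra genes, recognise class I molecules. Ly49C, F, G and I (Klra3, Klra6, Klra7 and Klra9) are inhibitory, and Ly49H (Klra8) is an activating receptor for a protein of mouse cytomegalovirus. The 5 genes had 6 rows, 4 of them with the suffix s or x, so the rows may not be independent of each other.

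Klra9 was the Ly49 row with the widest span of population means, 2.03. Its level was 4.54, 5.06 and 4.57 in Treg replicates 1, 2 and 4. In CD45RBlow replicates 1 to 4 it was 6.59, 6.33, 6.55 and 6.65, and in CD45RBhigh replicates it was 7.20, 6.23, 6.50 and 7.07. Treg arrays lay below all others, and the CD25- populations overlapped.

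Klra9 was 4.08-fold lower in Treg than in CD45RBhigh cells (-2.03, 95% interval -2.51 to -1.54, limma adjusted p = 3.94e-05) and 3.49-fold lower than in CD45RBlow cells (-1.81, -2.29 to -1.32, adjusted p = 0.000169). Between the CD25- populations the difference was -0.22 (-0.67 to 0.23, adjusted p = 0.490), which was not called. It was -0.07 without CD45RBhigh replicate 1, -0.12 without replicate 4 and -0.40 without replicate 2, and was not called in these fits either. Within replicates 1 and 2 the difference from CD45RBhigh cells was -1.92, and within replicates 3 and 4 it was -2.22.

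Klra3 read near background in every population on both of its rows. The row without suffix read 2.60, 2.62 and 2.60 in Treg replicates 1, 2 and 4, 3.26, 2.84, 2.87 and 2.93 in CD45RBlow replicates 1 to 4, and 3.33, 2.81, 2.87 and 3.20 in CD45RBhigh replicates 1 to 4. The x row read 2.19, 2.47 and 2.53 in Treg, 2.72, 2.72, 2.72 and 2.88 in CD45RBlow, and 3.17, 2.60, 2.87 and 3.07 in CD45RBhigh replicates. Treg arrays were below all others on each row.

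The row without suffix differed by -0.45 between Treg and CD45RBhigh cells (SE 0.14, limma adjusted p = 0.0425) and the x row by -0.53 (SE 0.13, adjusted p = 0.0147). The first call was kept in 4 of the 11 fits that each left out 1 array and ended without Treg replicates 1, 2 or 4, CD45RBlow replicates 3 or 4 and CD45RBhigh replicates 1 or 4, with adjusted p from 0.0520 to 0.106 there, 0.0539 with only the arrays compared, and from 0.00338 to 0.266 over all alternatives. The second ended without Treg replicate 1 (-0.43, adjusted p = 0.0725, in a range of 0.00193 to 0.220). Within replicates 1 and 2 neither row was called (-0.46 and -0.55), nor within replicates 3 and 4 (-0.44 on each row). Against CD45RBlow cells the 2 rows each differed by -0.37, which was not called (adjusted p = 0.119 and 0.107), while the replicate block called the row without suffix (-0.42, adjusted p = 0.0136, in a range of 0.0136 to 0.518). The x row was called there with only the arrays compared (adjusted p = 0.0481) and without CD45RBhigh replicate 2 (0.0408), in a range of 0.0408 to 0.532. Between CD45RBlow and CD45RBhigh cells the rows differed by -0.08 and -0.17, which was not called (adjusted p = 0.701 and 0.377).

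Klra8 read 3.78, 3.90 and 3.93 in Treg replicates 1, 2 and 4, 4.01, 3.76, 4.03 and 4.01 in CD45RBlow replicates, and 4.55, 4.01, 4.20 and 4.31 in CD45RBhigh replicates 1 to 4. CD45RBhigh arrays were above all Treg arrays and overlapped with CD45RBlow arrays. The difference between Treg and CD45RBhigh cells was -0.40 (SE 0.12, limma adjusted p = 0.0357). It was called in 4 of the 11 fits that each left out 1 array, and the call ended without Treg replicates 1, 2 or 4, without CD45RBlow replicate 1 and without CD45RBhigh replicates 1, 3 or 4, with adjusted p from 0.0508 to 0.125 there, 0.0701 with only the arrays compared, and from 0.00976 to 0.348 over all alternatives. Within replicates 1 and 2 it was -0.44 and within replicates 3 and 4 it was -0.32, neither of them called. Treg and CD45RBlow cells differed by -0.08 (95% interval -0.34 to 0.18, adjusted p = 0.744). CD45RBlow and CD45RBhigh cells differed by -0.32, not called without a block (adjusted p = 0.0872) and called with the replicate block (adjusted p = 0.0382) and without CD45RBhigh replicate 2 (-0.40, adjusted p = 0.0256, in a range of 0.0256 to 0.434).

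Klra7 and Klra6 passed in no comparison of the fit without a block. Klra7 ranged from 3.72 in CD45RBlow replicate 2 to 4.92 in CD45RBhigh replicate 1, with means of 4.02 ± 0.14 (SD, n = 3) in Treg, 3.96 ± 0.18 (SD, n = 4) in CD45RBlow and 4.45 ± 0.36 (SD, n = 4) in CD45RBhigh cells. With the replicate block it was called lower in Treg than in CD45RBhigh cells (-0.47, limma adjusted p = 0.0297, in a range of 0.0297 to 0.755) and lower in CD45RBlow than in CD45RBhigh cells (-0.49, adjusted p = 0.0182, in a range of 0.0182 to 0.565). With the number as a random block the first was not called (adjusted p = 0.0618) and the second was (0.0359). The differences were -0.62 and -0.73 within replicates 1 and 2, and within replicates 3 and 4 they were -0.18 and -0.24, none of them called. The second difference was also called without CD45RBhigh replicate 3 (-0.59, adjusted p = 0.0418). Without a block the adjusted p-values were 0.125 and 0.0788, and Treg and CD45RBlow cells differed by 0.05 (95% interval -0.33 to 0.44, adjusted p = 0.892). Klra6 ranged from 2.99 to 3.66, with means of 3.23, 3.15 and 3.48 in the order Treg, CD45RBlow, CD45RBhigh, all near background. With the replicate block it was called lower in CD45RBlow than in CD45RBhigh cells (-0.32, adjusted p = 0.0496, in a range of 0.000302 to 0.802), against an adjusted p of 0.0530 without it. That difference was -0.61 within replicates 1 and 2 and -0.04 within replicates 3 and 4. Treg and CD45RBhigh cells differed by -0.24 in Klra6 (limma adjusted p = 0.147), by -0.41 within replicates 1 and 2 (adjusted p = 0.00312) and by -0.08 within replicates 3 and 4 (0.690). The CD45RBlow minus CD45RBhigh difference was also called without CD45RBlow replicate 3 (adjusted p = 0.0432) and without CD45RBhigh replicates 3 (0.0337) or 4 (0.0423). Among the 21 alternatives run on the Klra6 row it was called in 9.

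The Ly49 rows shared part of their spread between arrays of 1 population. In CD45RBhigh cells replicate 1 was the highest array on 5 of the 6 rows and replicate 2 the lowest on 4. In CD45RBlow cells replicate 2 was the lowest on 5 of the 6. CD45RBhigh replicate 1 was also the highest of its population on Klrd1, Klrg1 and Klrb1f, but not on Klrc1 or Klrk1. The share over all probe sets was not computed, so this spread is not shown to be particular to Ly49 rows. The Ly49 rows may share signal, so these counts are a description.

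**Figure D3:**
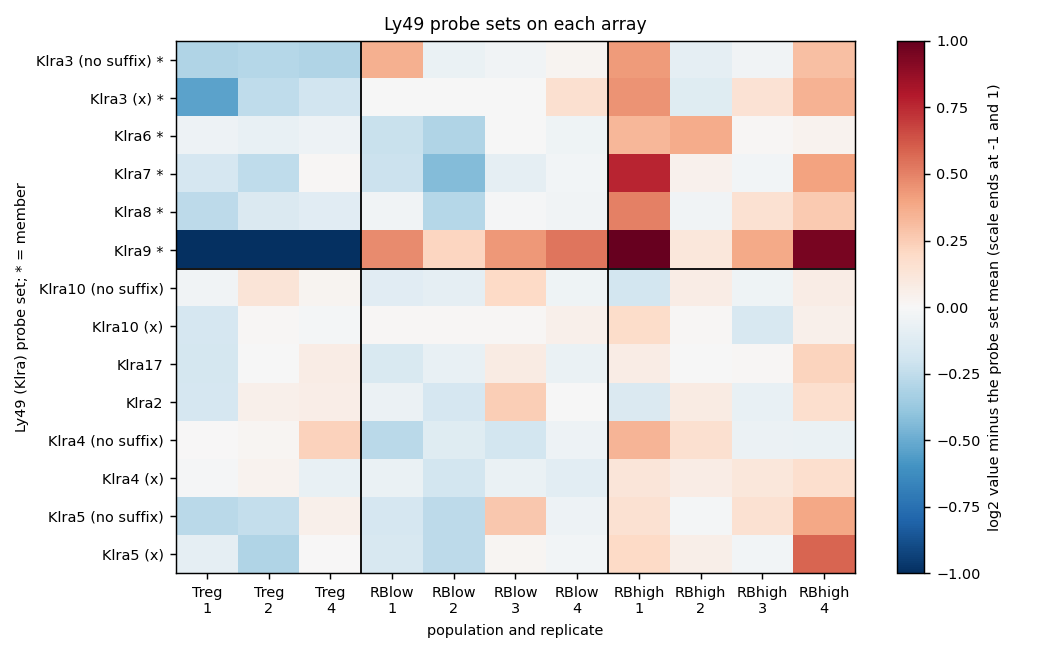
Log2 value of each Ly49 (Klra) probe set on each array, minus the probe set's own mean (colour, with the scale ended at -1 and 1), with the 6 rows studied, marked by an asterisk, above the line and other Klra rows below it. The Klra9 row is low on the 3 Treg arrays, and CD45RBhigh replicate 1 is the highest of its population on 5 of the 6 upper rows.

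Of 31 other names of lectin-like receptors of the natural killer gene complex 12 genes were measured. limma called 0 of them in the comparison of Treg with CD45RBhigh cells and 0 in that of Treg with CD45RBlow cells, with 2 and 1 at an unadjusted p under 0.05. Their median differences were -0.01 and 0.05, against -0.04 and 0.04 over all probe sets. Between the CD25- populations 0 were higher and 1 lower in CD45RBlow cells, beside 7.62% and 4.98% of all probe sets. The gene called was Klra4 of the activating Ly49D (x row, -0.22, SE 0.05, limma adjusted p = 0.0145). Its means of 2.29 and 2.51 are both near background. The other row of Klra4 differed by -0.25 there and was not called (adjusted p = 0.139). Klra5, which encodes Ly49E, read 3.64 to 4.30 on its row without suffix and was called in no comparison (adjusted p of 0.144 to 0.726). Olr1, a scavenger receptor of oxidised lipoproteins, differed by 0.19 between Treg and CD45RBlow cells and was not called (adjusted p = 0.0849). The 9 rows of other Klr genes read between 1.99 and 4.45 on all arrays.

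Of 22 names of ligands 2 were measured, Clec2d and Clec2h, both lectin-like partners of NKR-P1 receptors. limma called 0 of them in each comparison, with 0 at an unadjusted p under 0.05. Of all probe sets 18.9%, 12.5% and 12.6% were called, and 2 genes are too few to tell 0 from these. Clec2d had means of 8.45, 8.30 and 8.42 in Treg, CD45RBlow and CD45RBhigh cells, and Clec2h read near background.

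Of 22 names for adaptors, cytokine receptors and effector products of killer cells 11 were measured. These were all genes of cytokines, chemokines or cytokine receptors. No adaptor, phosphatase, perforin or granzyme gene of the list was among them. The list was chosen with earlier results of these data known, so setting its counts beside those of all probe sets is no test. Between CD45RBlow and CD45RBhigh cells 9 of the 11 genes rose in CD45RBlow cells and 0 fell (limma), beside 7.62% of all probe sets higher and 4.98% lower. The list median was 1.35 against -0.08 over all probe sets. Between Treg and CD45RBlow cells 1 was higher in Treg cells and 6 were lower (beside 6.74% and 5.78% of all probe sets, median -0.62 against 0.04). Between Treg and CD45RBhigh cells 2 were higher and 0 lower (10.3% and 8.59% of all, median 0.16 against -0.04). Ccl5, a chemokine of memory and effector cells, was higher in CD45RBlow than in CD45RBhigh cells by 2.27 (SE 0.17, adjusted p = 6.99e-06). Il18rap, a chain of the interleukin-18 receptor, was higher by 1.35 (SE 0.11, adjusted p = 1.16e-05), Il12rb1, of the interleukin-12 receptor, by 2.05 (SE 0.11, adjusted p = 4.93e-07) and Il2rb by 2.57 (SE 0.19, adjusted p = 6.08e-06). Il12rb1 and Il2rb were also higher in Treg than in CD45RBhigh cells, by 2.12 and 3.51 (limma adjusted p = 2.73e-07 and 3.19e-07).

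For the 4 receptors whose population means spanned at least 1, the named genes with the nearest profile were found by the root mean square difference over the 11 arrays, after each profile was centred on its own mean. This is a description with no test, and the arrays share their populations and replicate sets. Nearest to Klrg1 were Itgae, the integrin chain CD103 that binds E-cadherin (0.35), Il2ra (0.50) and Il1rl1, the receptor of interleukin-33 (0.53), where the median over all named genes was 2.00. Nearest to Klrb1f were Il18rap (0.24), the chemokine receptor gene Ccr10 (0.29) and the interleukin-1 receptor gene Il1r1 (0.30), with a median of 0.73. Klra9 was nearest to Acvrl1, a TGF-beta family receptor (0.36), St8sia1, a sialyltransferase of gangliosides (0.42), and Arsb, a lysosomal sulfatase (0.47), with a median of 0.91. For Klrd1 the nearest were Tgfbr3, a TGF-beta co-receptor (1.02), the sialyltransferase St3gal6 (1.08) and Igfbp4, which binds insulin-like growth factors (1.21), with a median of 2.20. The measure was not scaled by the span of a row, so its values are not ranked between receptors.

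**Figure D4:**
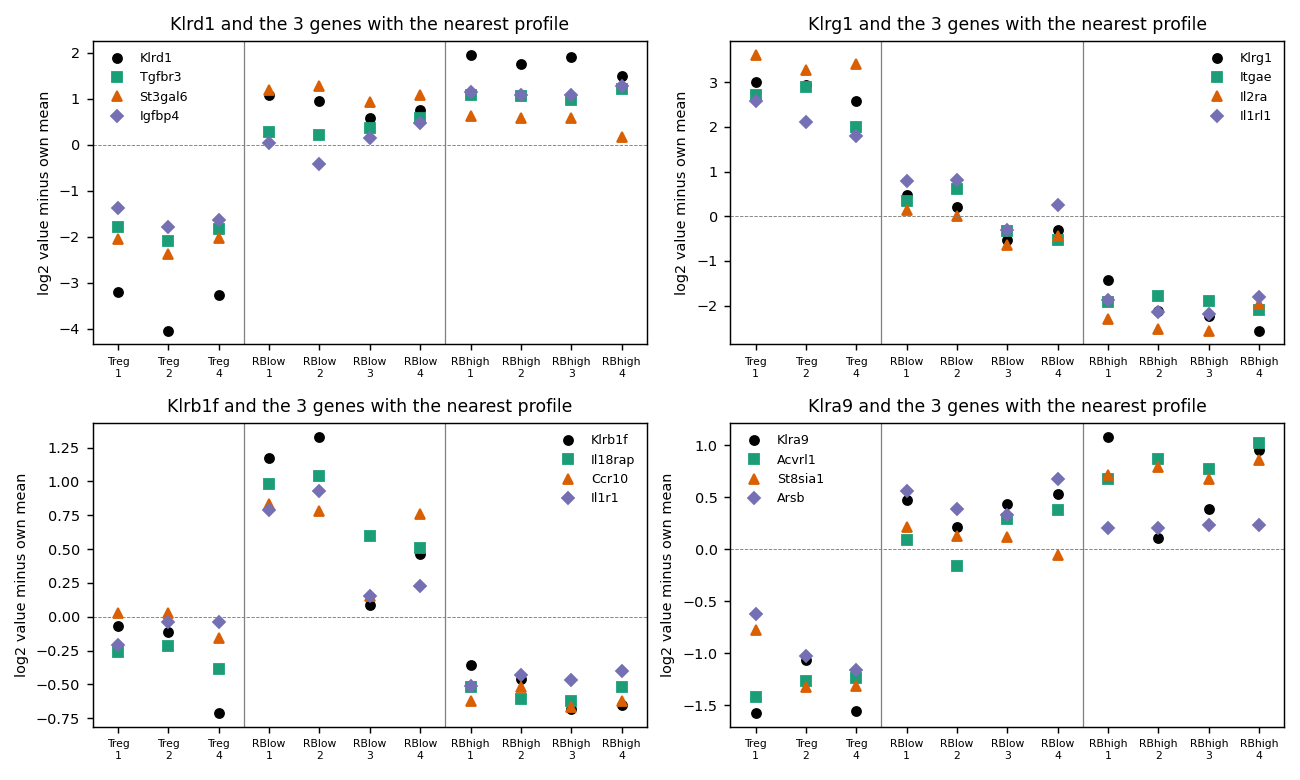
Log2 values minus each gene's own mean (vertical axes) on the 11 arrays (horizontal axes) for Klrd1, Klrg1, Klrb1f and Klra9 in black and the 3 named genes nearest to each in colour. Itgae runs closest to Klrg1, with a root mean square difference of 0.35, and the genes beside Klrd1 span less than Klrd1 does.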

How the data were processed

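RNA of 11 sorted samples was amplified, biotin-labelled and hybridised to 1 array each, per the labels. Trizol is given for extraction in the labels, an RNeasy kit in the series text. The authors deposited log2 values, computed with RMA per the series text and the submitters' processing notes. RMA removes background, equalises the distributions of arrays and combines the probes of a set. Its version is not given in the sources used here, and rescaling to equal distributions could hide a global shift between populations.

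RefSeq identifiers were matched without version to the RefSeq gene table of GRCm38.p6, which named 963 of 1246 probe sets and 909 genes. The other 283 have no name here. limma 3.58.1 in R 4.3.3 fitted 1 mean per population to all 11 arrays, with empirical Bayes moderation, two-sided tests, Benjamini-Hochberg adjustment over 1246 probe sets per comparison and a threshold of 0.05. Replicate numbers, shared across populations in the labels, were tested for pairing. In all 10 pairs of arrays with 1 number the deviations from the population mean correlated at over 0.1 (0.31 to 0.56, median 0.46). Of 30 pairs with different numbers 10 did so too (highest 0.58, median -0.31), so such correlation was not confined to 1 number. The blocked fit is given where it changes a call. The members, the gene lists, the naming rule and the alternatives were chosen with earlier results of these data known. The rule names every member row (per array where population means span at least 0.5 or a comparison is called, by range otherwise), up to 4 genes a list by smallest adjusted p, and the 3 nearest profiles of rows spanning at least 1. Where a gene of a list had several probe sets, the brightest was used. Motif search and alignment used Biopython 1.88 under Python 3.11.15, and figures matplotlib 3.10.9.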

Additional observations from a re-analysis of the deposited data

Results flagged for a closer look

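Of 22 sets of 4 arrays (11 rows in each CD25- population), 2 held an array whose gap to the others was past the 95% value of Dixon's ratio, where chance gives about 5% of sets. Klra3 (x row) read 2.88 in CD45RBlow replicate 4, with the other 3 arrays at 2.72. Klra8 read 3.76 in CD45RBlow replicate 2, with the others at 4.01 to 4.03. Sets of 3 Treg arrays were not tested.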

How the results depend on the processing

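The directions of Klrd1, Klrg1 and Klra9 in the Treg comparisons, and their calls, were the same under all alternatives run on those rows. Between Treg and CD45RBhigh cells 6 receptor rows were called, beside 235 of all 1246 probe sets. The number fell within replicates 3 and 4, where Treg cells have 1 array. It was 3 without the s and x rows (171 of the 971 probe sets left), which takes out 4 of the 11 receptor rows. With 1 array left out it was 3 to 6, lowest without Treg replicate 1, where 171 of 1246 were called. Between Treg and CD45RBlow cells 5 rows (156 of 1246) became 4 to 6 with 1 array left out (110 to 162). Between the CD25- populations 4 rows (157 of 1246) became 7 with the fixed replicate block (271) and 7 with the random one (225). With 1 array left out they were 3 to 6 (113 to 151). The calls over all probe sets thus moved with the settings too. Differences that were not called changed sign in 7 cases: Klrb1f, Treg minus CD45RBhigh, within replicates 3 and 4 (-0.05), and Klra6, Treg minus CD45RBlow (-0.03), and Klrk1, CD45RBlow minus CD45RBhigh (-0.01), in the same set. Klra7, Treg minus CD45RBlow, turned with quantile normalization (-0.01), without Treg replicate 4 (-0.02) and without CD45RBlow replicate 2 (-0.03), in a range of -0.03 to 0.11 with 1 array left out. Klra3 (row without suffix), CD45RBlow minus CD45RBhigh, turned without CD45RBhigh replicate 1 (0.01), in a range of -0.17 to 0.01. Apart from the removal of rows, the cause of these changes was not tested. Of the other values of single rows, 670 kept direction and side of the threshold, 28 passed it newly and 30 no longer did. The replicate block changed no call beyond those printed with it. Rows near background (Klrk1, Klra3 and Klra6) are limited by their signal.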
